A study of Rattus norvegicus with 12 samples.

Results

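Metallothioneins are small cysteine-rich proteins that bind zinc, copper and cadmium through clusters of thiolates, and Slc30a1 encodes ZnT1, the zinc exporter of the plasma membrane. Probes were taken by gene symbol for 6 genes, namely Mt1, Mt2A, Mt3, Mtf1, Slc30a1 and the zinc importer gene Slc39a10. The platform's probe table gave 7 probes for 5 of these genes (of 18166 genes with a named probe and 36685 probes in all), with 2 probes each for Mt1 and Mt2A and none for Slc39a10, which was not analysed here. The arrays came from a study of nitroxidative stress in primary wild-type rat cells labelled cardiomyocytes, grown with foetal bovine and horse serum. SIN-1, a donor of peroxynitrite, was given for 70 min, 4 h or 8 h, and each of these 3 groups and the control had 3 one-colour whole-transcript arrays, 12 in all. The labels describe biological triplicates, with no animal, strain, age, SIN-1 concentration, vehicle or culture time of the control, so p-values measure only the spread between these arrays, which may be technical, and all 3 treated times were set against the same control arrays. All values below are log2 expression after RMA (robust multi-array averaging), and "called" means an adjusted p under 0.05 in one limma fit over all 18511 probes with a single gene symbol.

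In mammals the transcription factor MTF-1, encoded by Mtf1, senses free zinc through its zinc fingers and binds short metal response elements in the promoters of metallothionein genes and of Slc30a1. Metallothionein genes also answer to glucocorticoids and to oxidants, and nitric oxide and peroxynitrite are known to oxidise zinc-thiolate clusters in the test tube so that zinc is set free. Mt1 and Mt2A are expressed in most tissues, the heart included, whereas Mt3 is known mainly from the brain. SLC30 proteins carry zinc out of the cytosol, and SLC39 proteins carry it in.

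The promoters of the genes whose expression differed, and of Mt3 as a metallothionein gene that was not called in any comparison, are shown because of the letters in them that match the metal response element. They are the RefSeq sequences of build GRCr8 from 250 bases before to 50 after the gene start, written 5′ to 3′ on the gene's strand, and capitals mark each match to the core TGCACNC or TGCGCNC on either strand.
Mt1 promoter (GRCr8 chr19:10832926-10833225, minus strand): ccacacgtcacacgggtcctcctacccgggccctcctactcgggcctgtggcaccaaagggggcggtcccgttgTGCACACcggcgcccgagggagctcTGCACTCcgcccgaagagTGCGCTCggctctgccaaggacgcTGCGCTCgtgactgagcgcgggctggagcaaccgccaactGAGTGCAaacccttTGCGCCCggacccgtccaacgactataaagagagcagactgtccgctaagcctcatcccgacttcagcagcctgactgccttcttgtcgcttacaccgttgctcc
Mt2A promoter (GRCr8 chr19:10838659-10838958, minus strand): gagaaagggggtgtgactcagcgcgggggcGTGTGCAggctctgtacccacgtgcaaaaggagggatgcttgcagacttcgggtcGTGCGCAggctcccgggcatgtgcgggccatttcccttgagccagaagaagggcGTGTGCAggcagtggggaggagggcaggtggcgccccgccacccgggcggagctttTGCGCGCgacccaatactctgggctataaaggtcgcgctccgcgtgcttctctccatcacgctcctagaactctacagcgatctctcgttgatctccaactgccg
Slc30a1 promoter (GRCr8 chr13:106021769-106022068, plus strand): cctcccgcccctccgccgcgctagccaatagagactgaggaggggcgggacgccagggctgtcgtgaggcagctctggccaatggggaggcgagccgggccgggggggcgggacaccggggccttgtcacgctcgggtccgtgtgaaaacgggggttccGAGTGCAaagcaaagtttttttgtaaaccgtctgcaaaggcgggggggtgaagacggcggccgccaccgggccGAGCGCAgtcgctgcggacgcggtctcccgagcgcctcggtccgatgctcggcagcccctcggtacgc
Mt3 promoter (GRCr8 chr19:10856031-10856330, minus strand): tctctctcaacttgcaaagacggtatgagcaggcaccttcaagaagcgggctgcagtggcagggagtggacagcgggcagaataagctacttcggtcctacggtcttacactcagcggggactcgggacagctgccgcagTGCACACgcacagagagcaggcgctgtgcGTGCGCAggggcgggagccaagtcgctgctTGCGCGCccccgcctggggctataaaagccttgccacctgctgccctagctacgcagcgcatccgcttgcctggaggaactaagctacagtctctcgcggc

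The Mt1 promoter held 6 matches to the metal response element core, none overlapping another, and 0.0299% of the 33469 rat promoters of this length held as many. Mt2A had 4 matches (0.257% of promoters held at least as many), Mt3 had 3 (1.13%), Mtf1 itself and Slc30a1 had 2 each (5.39%), and Slc39a10 had 0, while 24.2% of all promoters held at least 1. The core of the antioxidant response element, searched as TGACNNNGC on both strands, was found once in Mt1 (TGACTGAGC, bases -101 to -93 from the gene start), once in Mt2A (TGACTCAGC, -237 to -229) and once in Slc30a1 on the opposite strand (TGACAAGGC, -130 to -122). Mtf1 held 2 such cores (0.875% of promoters held at least as many). Mt3 and Slc39a10 held 0, while 12.1% of all promoters held at least 1. A match is a run of letters and was not tested as a binding site here. RefSeq places Mt1, Mt2A, Mt3 and Mt4 side by side on chromosome 19 with no other gene between them.

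**Figure D1:**
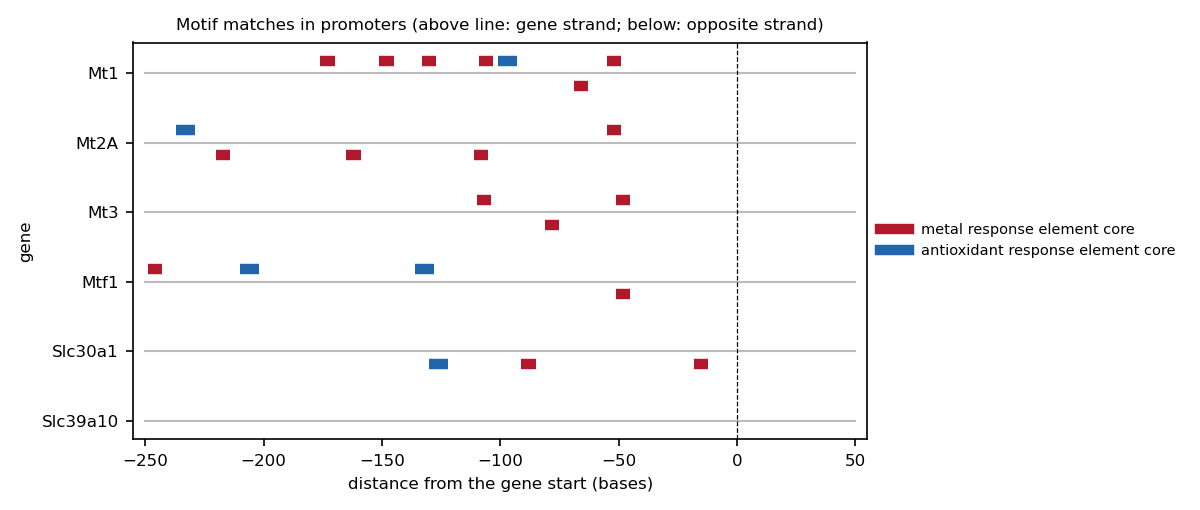
Matches to the metal response element core (red) and the antioxidant response element core (blue) in the 6 promoters, by distance from the gene start in bases, with matches on the gene strand above each line and those on the opposite strand below it. Mt1 has 6 red marks, Mt2A 4, Mt3 3, Mtf1 and Slc30a1 2 each and Slc39a10 none.

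Markers of the labelled cell type were checked first. Of 11 tested cardiomyocyte marker genes, 9 had a mean below the median of all tested probes. Tnnt2 (51.3rd percentile) and Pln (83.0th) lay above it. The myosin heavy chain genes Myh6 and Myh7 lay at the 15.9th and 13.5th percentile, Ryr2 at the 21.4th and Ttn at the 26.4th. By contrast 6 of 9 fibroblast markers lay between the 90.4th percentile (Lum) and the 99.9th (Col1a1). The rest were Dcn (51.1st), Pdgfra (49.0th) and Tcf21 (33.1st). The 6 macrophage and leukocyte markers and 4 endothelial markers tested all lay below the median. Of 3 smooth muscle and pericyte markers, Pdgfrb lay at the 97.7th percentile and 2 lay below the median. Of 3 glia and Schwann markers 2 lay below the median. Percentiles compare different probes and are only a rough guide to level, but most of the tested cardiomyocyte markers were low in these arrays labelled cardiomyocytes. At 70 min 4 of the 9 fibroblast markers were called, all lower (Col3a1, Dcn, Lum and Ddr2), and at 4 h 1 was (Col3a1), beside 14.4% of all tested probes called at 70 min (7.7% lower) and 3.79% at 4 h. Of the cardiomyocyte markers Pln alone was called against control, lower at 4 h. In the other lists, the endothelial marker Tek was called lower at 70 min (-0.88, limma adjusted p = 0.000135). Pdgfrb was called lower at 4 h (-0.49, limma adjusted p = 6.63e-05). The mean of the 3 smooth muscle and pericyte markers was 7.23 to 7.32 in control arrays and 7.04 to 7.29 at 70 min. At 4 h it was 6.99 to 7.03, and at 8 h 7.24 to 7.27. The mean of the fibroblast list was 9.35 to 9.39 in control arrays, 8.96 to 9.09 at 70 min, 9.17 to 9.32 at 4 h and 9.34 to 9.47 at 8 h, and that of the cardiomyocyte list 4.81 to 4.94, 4.79 to 5.08, 4.75 to 4.93 and 4.68 to 4.89 in the same order. In such bulk samples fewer cells of a type and less RNA per cell cannot be told apart, and the part of these shifts in the results below was not tested. Arrays of one group correlated at 0.981 to 0.988 over all probes. Taken per array, the median of all values was highest in replicates 2 and 3 of the 70 min group (5.11 and 5.12) and replicate 3 of the 4 h group (5.09), and lay between 4.98 and 5.05 elsewhere. Results are therefore also given without these 3 arrays, which leaves 1 array at 70 min and 2 at 4 h; the lone 70 min array is then assumed to vary like the other groups.

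Mt1, the first of the inducible metallothionein genes, rose at 4 h and was lower at 8 h than at 4 h. Its brighter probe (17731745) read 8.93, 8.83 and 8.72 in control arrays, 8.81, 8.73 and 8.77 at 70 min, 9.67, 9.38 and 9.60 at 4 h and 9.16, 9.04 and 8.93 at 8 h. The 4 h arrays were all above every other array, the lowest 8 h array lay just above the highest control, and the 70 min arrays lay among the controls. At 4 h the mean was 9.55 ± 0.16, against 8.82 ± 0.10 in control cells (SD, n = 3 each), a 1.65-fold difference (log2 fold change 0.73 ± 0.08, SE; limma adjusted p = 6.63e-05). Of all 18511 tested probes, 34 had a larger log2 fold change at 4 h. The call held under all 19 alternatives run, with adjusted p between 2.94e-05 and 0.00698.

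The same Mt1 probe also differed between treated times. At 4 h it was 1.72-fold above its level at 70 min (log2 fold change 0.78 ± 0.08, SE; limma adjusted p = 1.01e-05), and at 8 h it was lower than at 4 h, by 0.51 on the log2 scale (SE 0.08; limma adjusted p = 0.00182). The fall at 8 h held in all alternatives but the mean of both Mt1 probes (adjusted p = 0.0892). At 70 min Mt1 stood at -0.06 from control, with a 95% confidence interval of -0.23 to 0.12, which leaves out a rise of the size seen at 4 h. Ordered by mean, 4 h was followed by 8 h, control and 70 min. Of the neighbours in that order only 4 h and 8 h were called different. At 8 h Mt1 was 0.22 above control (95% confidence interval 0.04 to 0.40), which was not called (limma adjusted p = 0.907, unadjusted p = 0.0169), and 0.28 above 70 min (limma adjusted p = 0.031). The call against 70 min was lost in 9 of 19 alternatives, among them the set without the 3 arrays of highest median (0.362) and those without 70 min replicate 2 or 3 or 8 h replicate 1 or 2 (0.0997, 0.0812, 0.122 and 0.0869).

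The dimmer Mt1 probe (17717103) scattered more. It read 5.58, 5.44 and 5.37 in control arrays, 6.40, 5.00 and 5.27 at 70 min, 6.42, 6.56 and 5.71 at 4 h and 5.67, 5.77 and 5.86 at 8 h. The 4 h and the 8 h arrays all lay above the controls, while 70 min replicate 1 stood far above the other arrays of its time. The mean difference at 4 h was 0.76 on the log2 scale, close to that of the brighter probe, but its SE was 0.27 and it was not called (limma adjusted p = 0.155). It was called with array weights (0.0459), with each array's median as a covariate (0.00815) and without the 3 arrays of highest median (1.02, adjusted p = 0.00058). At 70 min the probe turned on single arrays, with 0.09 over all arrays, -0.33 without 70 min replicate 1 (adjusted p = 0.264) and 0.94 without the 3 arrays of highest median, where only 70 min replicate 1 is left (0.00241). Against 70 min, too, its values hung on that array: without it the probe was called higher at 4 h (1.09, adjusted p = 0.002) and at 8 h (0.63, 0.0336). RefSeq lists 4 pseudogenes named after Mt1, and near-identical copies can share probe signal, so which transcript this probe reads is uncertain.

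Mt2A, the partner of Mt1 in the same cluster, was called higher than control at 4 h by its brighter probe alone. The 8 h arrays of both Mt2A probes were above all controls. Which locus each Mt2A probe was designed for is not given, so which transcript each reads is uncertain. The brighter Mt2A probe (17752700) read 10.42, 10.35 and 10.29 in control arrays, 10.46, 10.44 and 10.38 at 70 min, 10.75, 10.79 and 10.66 at 4 h and 10.63, 10.70 and 10.59 at 8 h. All 4 h and 8 h arrays lay above all control and 70 min arrays. At 4 h the mean was 10.73 ± 0.07, against 10.36 ± 0.06 in control cells (SD, n = 3 each), a 1.3-fold difference (log2 fold change 0.38 ± 0.05, SE; limma adjusted p = 0.000423). The call held under all 19 alternatives, at adjusted p up to 0.0257. At 4 h Mt2A was also 0.31 above 70 min (limma adjusted p = 0.00109), a call that ended only without the 3 arrays of highest median (0.0644).

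At 8 h the brighter Mt2A probe was 0.28 ± 0.05 (SE) above control, a 1.22-fold difference that was not called over all probes (limma adjusted p = 0.112, unadjusted p = 4.84e-05), although with array weights it was (0.00954). Between 8 h and 4 h it differed by -0.09, with a 95% confidence interval of -0.21 to 0.02 (limma adjusted p = 0.452), and from 70 min by 0.21 (0.00883). By mean the order was 4 h, 8 h, 70 min and control, and of the neighbours only 8 h and 70 min were called different. That call ended without 8 h replicate 2 (0.0604), without the 3 arrays of highest median (0.18), with a constant prior variance (0.0905) and with each array's median as a covariate (0.103). Whether Mt1 and Mt2A fell by unequal amounts from 4 h to 8 h was not tested.

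The dimmer Mt2A probe (17731750) was also higher at 4 h and 8 h than at 70 min. It read 7.27, 7.30 and 7.23 in control arrays, 7.33, 7.33 and 6.89 at 70 min, 7.85, 7.80 and 7.41 at 4 h and 7.47, 7.57 and 7.74 at 8 h. Every 4 h and 8 h array was above every control and 70 min array, with 70 min replicate 3 and 4 h replicate 3 the lowest of their groups. The 4 h difference from control was 0.42 ± 0.13 (SE), not called over all arrays (limma adjusted p = 0.0855) but called without 4 h replicate 3 (0.56, adjusted p = 0.021), with array weights (0.034), with each array's median as a covariate (0.0436) and without the 3 arrays of highest median (0.00636). Against 70 min it was higher at 4 h by 0.51 (limma adjusted p = 0.0212) and at 8 h by 0.41 (0.0372). Those calls were lost in 8 and 7 of 17 alternatives, without 70 min replicate 3 for example (adjusted p = 0.128 and 0.208). The first was lost also without 4 h replicate 1 or 2 (0.0937 and 0.0914), and the second without 8 h replicate 2 or 3 (0.0884 and 0.144).

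**Figure D2:**
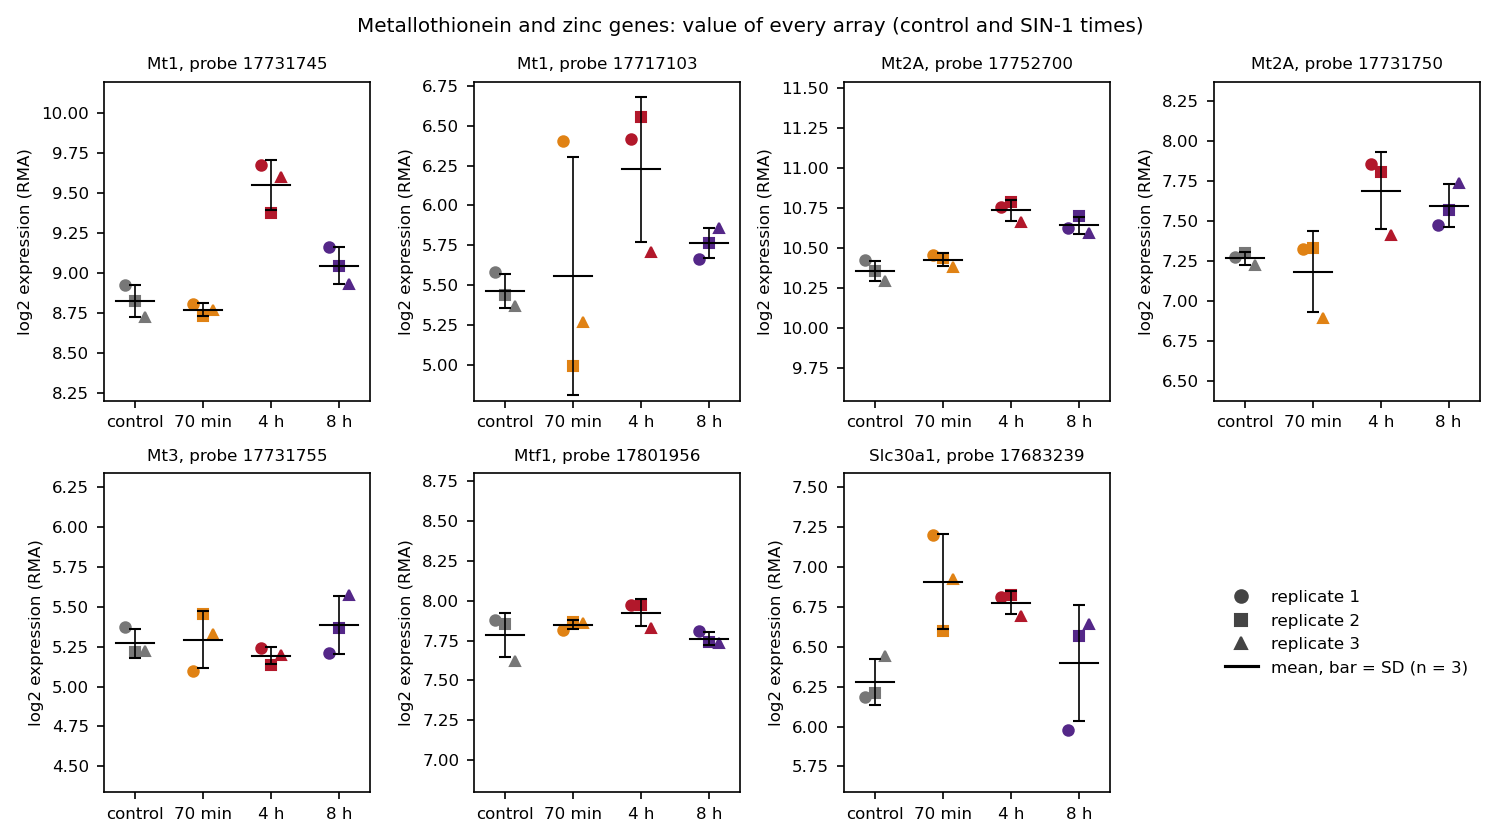
Log2 expression (RMA) of each of the 7 probes in every array, in control cells and after 70 min, 4 h and 8 h of SIN-1, with marker shapes for replicates 1 to 3, a horizontal bar for the mean and a vertical bar for the SD (n = 3); every panel spans the same 2 log2 units. The 4 h arrays of the brighter Mt1 probe (9.38 to 9.67) lie above all its other arrays, and Slc30a1 has its highest mean at 70 min. All 12 arrays lie between 5.10 and 5.57 for Mt3 and between 7.62 and 7.97 for Mtf1.

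Slc30a1, the zinc exporter gene, had its highest mean at 70 min, though 70 min replicate 2 lay below all 4 h arrays. Without 70 min replicate 1 the difference of 4 h from 70 min was 0.01, against -0.13 over all arrays. It read 6.18, 6.21 and 6.44 in control arrays, 7.20, 6.60 and 6.93 at 70 min, 6.81, 6.82 and 6.69 at 4 h and 5.98, 6.57 and 6.64 at 8 h. All 70 min and 4 h arrays lay above all controls, and the 8 h arrays straddled them, with 8 h replicate 1 the lowest of the 12. At 70 min the mean was 6.91 ± 0.30, against 6.28 ± 0.14 in control cells (SD, n = 3 each), a 1.55-fold difference (log2 fold change 0.63 ± 0.16, SE; limma adjusted p = 0.015). Slc30a1 was the 1 probe of 7 called at 70 min, when 14.4% of all tested probes were called (6.72% higher and 7.7% lower). It was also the 1 probe with all 70 min arrays above all controls, as 16.8% of all tested probes were. Its call rested on few arrays, ending without control replicate 1 or 2 (0.0676 and 0.0576), without 70 min replicate 1 or 3 (0.0605 and 0.0515), and when every probe of the table was tested (0.065), though the difference stayed between 0.48 and 0.92 in all 19 alternatives.

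At 4 h Slc30a1 was 0.50 ± 0.16 (SE) above control, a 1.41-fold difference that was not called (limma adjusted p = 0.123; 0.0276 with the compared groups alone). At 8 h it was 0.12 above control, with a 95% confidence interval of -0.23 to 0.46 (limma adjusted p = 0.984), and 1.42-fold lower than at 70 min (log2 fold change -0.51 ± 0.16, SE; limma adjusted p = 0.0428). That last call ended in 9 of 19 alternatives, without 70 min replicate 1 or 3 and without 8 h replicate 1 among them (0.145, 0.117 and 0.204). The order by mean was 70 min, 4 h, 8 h and control, and no neighbours in it were called different, although all 8 h arrays lay below all 4 h arrays (-0.38, limma adjusted p = 0.287). From 70 min to 4 h Slc30a1 differed by -0.13 (95% confidence interval -0.48 to 0.21), where Mt1 differed by 0.78 and Mt2A by 0.31; the difference between these genes was not tested.

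Mtf1 and Mt3 were called in none of the 6 comparisons, and their smallest unadjusted p-values were 0.0641 and 0.157. Mtf1, the gene of the zinc sensor, read 7.88, 7.85 and 7.62 in control arrays, 7.82, 7.87 and 7.86 at 70 min, 7.97, 7.97 and 7.83 at 4 h and 7.81, 7.74 and 7.73 at 8 h. Its groups overlapped with control at every time, and the 95% confidence interval of its difference from control reached 0.24 at 70 min, 0.31 at 4 h and 0.15 at 8 h. Mt3 read between 5.10 and 5.57 in all 12 arrays with every treated group overlapping control. Its mean lay at the 42.2nd percentile of the tested probes, and whether its probe read above background was not tested. The intervals of Mt3 ran from -0.25 to 0.30 at 70 min, from -0.35 to 0.20 at 4 h and from -0.16 to 0.39 at 8 h. Mt4, the last gene of the cluster and not among the 6, was looked at after the values were seen and read between 5.97 and 6.51, with a 4 h difference of -0.12 from control (limma adjusted p = 0.719).

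**Figure D3:**
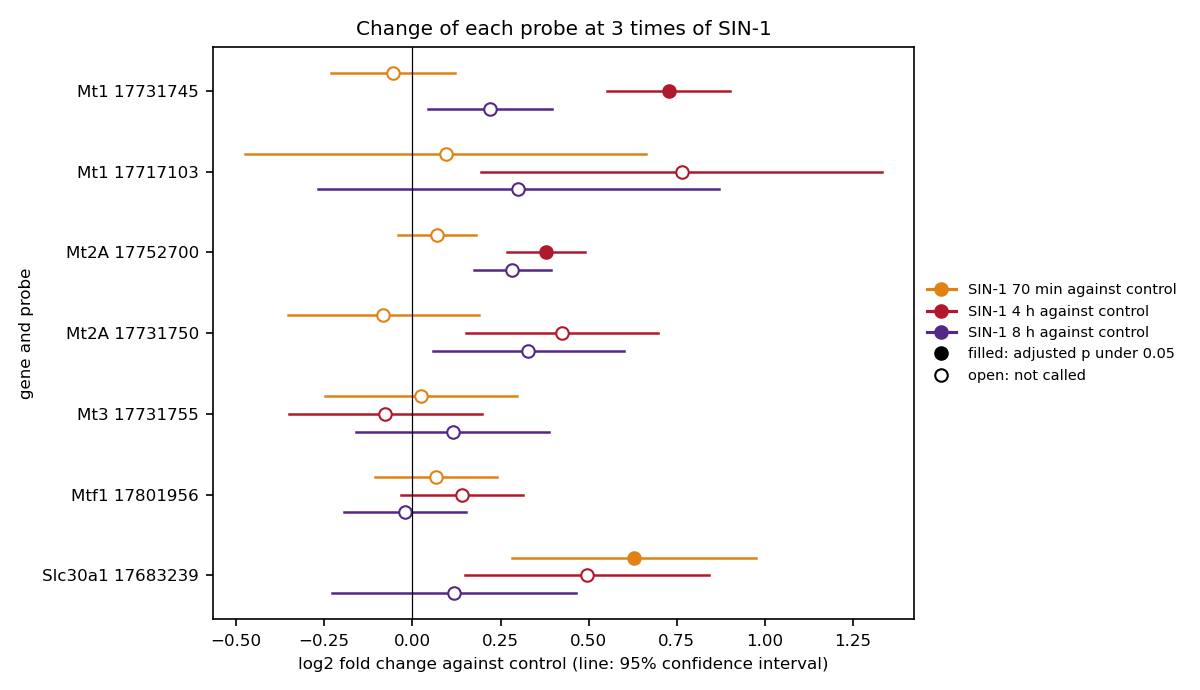
Log2 fold change of each probe against control at 70 min, 4 h and 8 h, with its 95% confidence interval; filled points have an adjusted p under 0.05. The filled points are Slc30a1 at 70 min (0.63) and the brighter Mt1 and Mt2A probes at 4 h (0.73 and 0.38), and no point of the 8 h comparison is filled.

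Counted over the 7 probes, 2 were called at 4 h against control, both higher, when 3.79% of all tested probes were called (2.05% higher). At that time 5 of the 7 had all treated arrays above all control arrays, as 11.5% of all tested probes did, and the median log2 fold change of the 7 was 0.42, against 0.01 for all probes. Those 5 were the Mt1, Mt2A and Slc30a1 probes. Mt1 and Mt2A have 2 probes each, so these counts and medians are not over separate genes. The genes were also chosen with earlier results of these data known. At 8 h limma called 0 of the 7 (3 at an unadjusted p under 0.05), beside 0.027% of all probes. Here 4 of the 7, the Mt1 and Mt2A probes, lay above all control arrays, as 8.01% of all tested probes did, and the median of the 7 was 0.22, against 0.01. At 70 min the median of the 7 was 0.07, against 0.03. Between times, 3 of the 7 were called higher at 4 h than at 70 min, when 7.47% of all probes were called (4.39% higher), and the same 3 had no overlap with the 70 min arrays, as 10.9% of all probes did in that direction. From 4 h to 8 h 1 was called lower (3.42% called, 1.51% lower), while 3 had all 8 h arrays below all 4 h arrays, as 8.98% of all probes did. At 8 h against 70 min 3 were called higher and 1 lower (15.9% called, 9.49% higher and 6.43% lower), and 3 lay wholly above and 1 (Mtf1, not called) wholly below, beside 15.7% and 15.3% of all probes.

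Over the 12 arrays the brighter Mt1 and Mt2A probes correlated at a Pearson r of 0.84, but at 0.13 once each group's mean was removed, a figure that leaves only the spread within groups. The 2 Mt2A probes correlated at 0.83 (0.52 within groups) and the 2 Mt1 probes at 0.59 (-0.01 within groups). Slc30a1 correlated at 0.11 with the brighter Mt1 probe (-0.40 within groups) and at 0.18 with the brighter Mt2A probe (0.02 within groups). With the dimmer Mt1 probe it correlated at 0.46 (0.58 within groups) and with the dimmer Mt2A probe at 0.06 (0.26 within groups). All these points share arrays, and they describe 12 arrays in 4 groups.

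The genes most like Mt1 over the 12 arrays, among 9182 brighter probes outside the chosen genes, were Phaf1 (r = 0.97), Brd8 (0.94), Mt1f (0.92), Polr2a (0.91) and Oaf (0.91). Mt1f is a metallothionein gene that RefSeq places on chromosome X. It read 7.62, 7.50 and 7.22 in control arrays, 7.47, 7.12 and 7.52 at 70 min, 8.11, 8.10 and 8.00 at 4 h and 7.80, 7.74 and 7.39 at 8 h, highest in the 4 h arrays. Its mean at 4 h was 1.54-fold that of control cells, given as a description since the gene was picked for its likeness to Mt1. Probes of such close copies may read each other's transcripts, so Mt1f and Mt1 are not independent measurements. For Mt2A the most like genes were Ufd1 (r = 0.96), Atp5pb (0.92), Prmt9 (0.89), Nqo1 (0.88) and Eepd1 (0.87). Nqo1, an NRF2 target that encodes a quinone reductase, stood 0.48 above control at 4 h and 0.47 at 8 h on the log2 scale, again as a description.

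The oxidant-responsive genes Hmox1, of heme oxygenase, and Gclc, of glutathione synthesis, were set beside Mt1, without a test between the genes. Hmox1 was higher by 1.10, 0.52 and 0.64 at 70 min, 4 h and 8 h, all 3 called (limma adjusted p = 9.76e-08, 0.00112 and 0.00162; the call at 8 h ended with a constant prior variance, at 0.0847), and Gclc by 0.60 and 0.65 at 70 min and 4 h (2.37e-05 and 6.5e-05), with 0.24 at 8 h not called (0.656). All Hmox1 and Gclc differences were against the same control arrays as those of Mt1.

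The other zinc transporters were taken as a list. Of 22 tested SLC30 and SLC39 genes besides Slc30a1, 5 rose and 1 fell at 70 min (limma; 6.72% and 7.7% of all probes), with a median of 0.15, against 0.03 for all probes. The genes that rose were Slc30a7, which loads zinc into the Golgi (0.43 ± 0.08, SE; limma adjusted p = 0.00164), Slc39a13 (0.43), Slc39a11 (0.42), Slc39a7, which releases zinc from the endoplasmic reticulum (0.35), and Slc39a14, an importer of zinc, iron and manganese (0.32). Slc39a8, an importer of zinc and manganese, fell to 5.12 ± 0.22, against 5.73 ± 0.16 in control cells (SD, n = 3 each; log2 fold change -0.61 ± 0.16, SE; limma adjusted p = 0.019).

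Against 70 min, Slc39a8 was 0.86 higher at 8 h (limma adjusted p = 0.00147) and Slc30a9 was 0.34 higher (0.0491). Slc30a7, Slc39a13 and Slc39a14 were lower (-0.46, -0.39 and -0.44, limma adjusted p = 0.000792, 0.0177 and 0.0062). Of all probes, 9.49% were called higher and 6.43% lower in that comparison. Alternatives were not run for these calls. At 4 h only Slc39a11 was called against control (0.45, limma adjusted p = 0.00921; 0.05 without 4 h replicate 2), 1 of 22 beside 3.79% of all probes. At 8 h limma called none of the 22, with 1 at an unadjusted p under 0.05, beside 0.027% of all probes called. With the 3 arrays of highest median left out, which was chosen for this list after seeing the data, 1 rose (Slc30a5) and 1 fell (Slc39a8) at 70 min, and the calls of all 5 risers ended (adjusted p = 0.0679 to 0.395). In that setting the 70 min group is 1 array and the other groups supply the spread, and the differences themselves were 0.39 for Slc30a7, 0.41 for Slc39a13, 0.33 for Slc39a11, 0.28 for Slc39a7 and 0.27 for Slc39a14. The call of Slc39a14 ended in 10 of 19 alternatives and that of Slc39a8 in 6 of 18. That of Slc39a8 was lost, for example, without control replicate 1 or 3 (0.0542 and 0.0916) or 70 min replicate 1 or 3 (0.0568 and 0.0756), and that of Slc39a13 without control replicate 2 or 70 min replicate 2 (0.0685 and 0.0612).

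**Figure D4:**
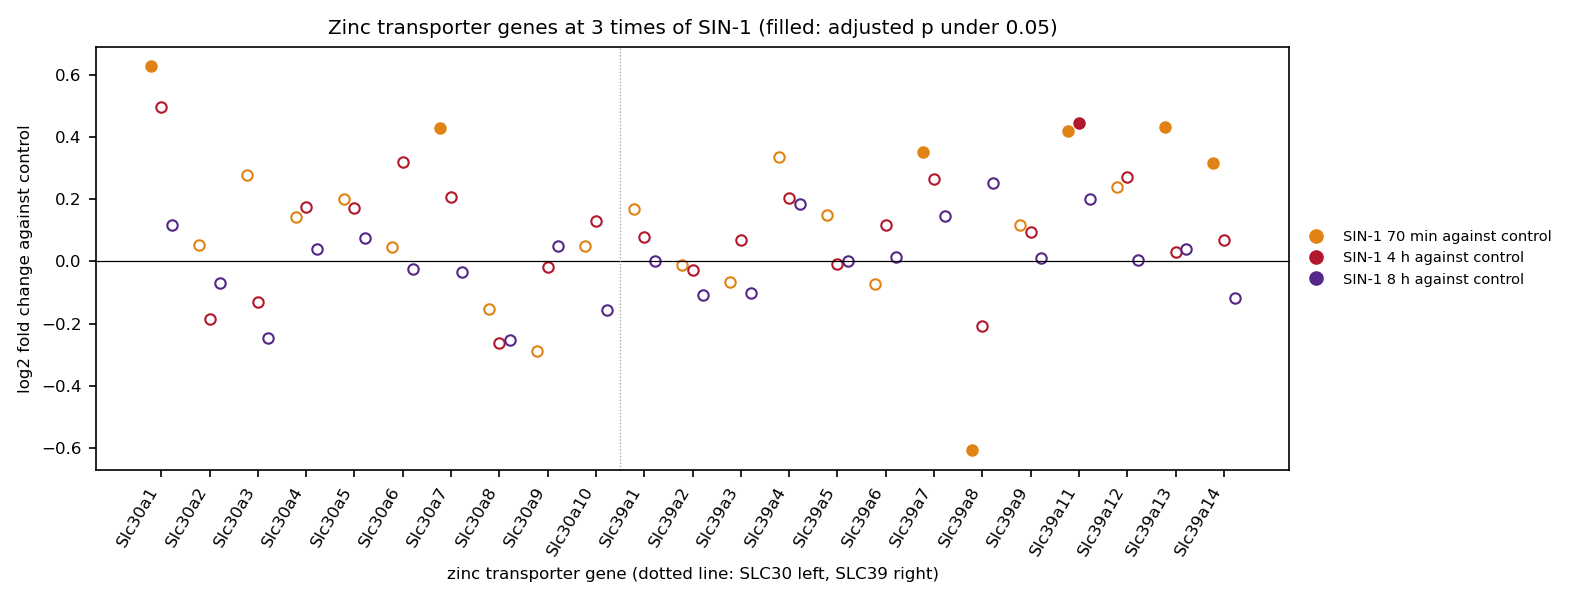
Log2 fold change against control of 23 zinc transporter genes (SLC30 left of the dotted line, SLC39 right) at 70 min, 4 h and 8 h of SIN-1; filled points have an adjusted p under 0.05. Slc30a1 (0.63) and Slc39a8 (-0.61) are the extremes at 70 min, and no 8 h point is filled.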

How the data were processed

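The 12 one-colour arrays were read from 1 deposited table of 36685 probes, prepared with a kit for whole transcripts per the labels' protocols. The deposited log2 values had been made by the authors with RMA, for which the submitters' processing notes name Affymetrix Expression Console 1.3.1.187. The log2 scale was inferred from their range of 1.19 to 13.63, and a genome build is not given in the sources used here. RMA equalises array distributions and compresses small signals, and precision rests on how many arrays each group has.

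The platform's annotation named 18511 probes by 1 symbol and 575 by several, and 17599 were unlisted; 18394 matched RefSeq (GRCr8). Each single-symbol probe was fitted over all 4 groups with limma 3.58.1 in R 4.3.3 (trended prior variance, two-sided), with Benjamini-Hochberg adjustment within each of 6 comparisons. The genes and lists were chosen with earlier results of these data known. Named are all probes of the chosen genes, called members of the lists, and the 5 brighter genes most correlated with Mt1 and with Mt2A. Data were simulated for 70 min against control over 18511 probes. Of 100 probes changed by 1 on the log2 scale 96% were recovered, and of 100 changed by 0.5 42%, with 4 false calls. Far fewer probes were changed there than the 2670 called at 70 min, and the spread was drawn independently for each value. These rates therefore need not hold for the real comparisons. Alternatives were a replicate block, other prior variances, array weights, further scaling, each array's median as a covariate, other probe sets, the compared groups alone and arrays left out. Figures were drawn with matplotlib 3.10.9.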

Additional observations from a re-analysis of the deposited data

Results flagged for a closer look

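Expression differed between SIN-1 times for 4 probes, tested directly between the treated groups. The treated times had no controls of their own, so a change with time in culture and a change in the effect of SIN-1 cannot be told apart. The brighter Mt1 probe differed by 0.78 between 4 h and 70 min, by -0.51 between 8 h and 4 h and by 0.28 between 8 h and 70 min, each as later minus earlier time on the log2 scale (limma adjusted p = 1.01e-05, 0.00182 and 0.031). The brighter Mt2A probe differed by 0.31 between 4 h and 70 min and by 0.21 between 8 h and 70 min (limma adjusted p = 0.00109 and 0.00883), and the dimmer one by 0.51 and 0.41 (0.0212 and 0.0372). Slc30a1 differed by -0.51 between 8 h and 70 min (limma adjusted p = 0.0428).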

How the results depend on the processing

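Each of 42 results (7 probes in 6 comparisons) was recomputed under up to 19 alternatives, 768 values in all. Of these 681 kept both direction and side of the threshold, 44 lost a call, 17 gained one, 25 changed sign without a call on either side, and 1 reversed with a call, namely the dimmer Mt1 probe at 8 h against 70 min, at -0.64 without the 3 arrays of highest median (limma adjusted p = 0.0208; 0.21 over all arrays). The number of the 7 probes called at 70 min against control was 2 with the array median as a covariate, 0 when every probe of the table was tested and 2 without the 3 arrays of highest median, against 1 as reported. At 4 h it was 4 with array weights, 4 with the array median as a covariate and 4 without the 3 arrays, against 2. At 8 h it was 1 with the replicate block and 1 with array weights, against 0. Between 4 h and 70 min it was 1 without the 3 arrays, against 3. Between 8 h and 4 h it was 2 with the covariate, 0 with the mean of a gene's probes and 2 without the 3 arrays, against 1. Between 8 h and 70 min it was 0 with a constant prior variance, 1 with the covariate, 1 with every probe, 2 with the mean of a gene's probes and 2 without the 3 arrays, against 4. Leaving out 1 array at a time gave 0 to 1 at 70 min, 2 to 3 at 4 h, 0 at 8 h, 2 to 4 between 4 h and 70 min, 1 between 8 h and 4 h, and 1 to 4 between 8 h and 70 min. Other settings gave smaller shifts. At 4 h it was 3 with the compared groups alone. Between 4 h and 70 min it was 4 with array weights. It was 2 there with a constant prior variance, the covariate, every probe or the compared groups alone. So it was with 1 probe per gene or the mean of a gene's probes. Between 8 h and 70 min it was 3 with the replicate block, array weights or median-centred arrays. So it was with 1 probe per gene or the compared groups alone. The means of a gene's probes, 1 probe per gene and the test of every probe change how many features are tested. For the other settings the cause was not tested. With every array used, limma called 2670, 701 and 5 of all probes against control at 70 min, 4 h and 8 h; leaving out 1 array gave 1752 to 3146 (lowest without control replicate 1), 368 to 583 (368, 372, 444 and 438 without control replicates 1, 2 and 3 and 4 h replicate 1) and 5 to 6. Without the 3 arrays 1056 were called at 70 min. At 4 h 339 were called with a constant prior variance, 335 with arrays centred on their medians and 454 of every probe, and at 8 h 37 with array weights, 9 with the replicate block and 2 with a constant prior variance.

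Groups share replicate numbers, but only 5 of 18 same-numbered pairs of arrays had deviations correlated above 0.1 (range -0.32 to 0.24) and 4 of 12 arrays correlated best with their own number, so the numbers were not taken to pair the samples. With the replicate block 2663, 677 and 9 probes were called against control at 70 min, 4 h and 8 h; the brighter Mt2A probe gained a call at 8 h (limma adjusted p = 0.0357) and Slc30a1 lost that of 8 h against 70 min (0.0567). Over all tested probes the SE of the log2 difference had a median of 0.13, and that of the dimmer Mt1 probe was 0.27, which limits what small changes can be seen. A background level was not measured here.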

Other observations

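Genes that handle copper and iron were set beside the zinc genes. Of 17 tested, 1 rose and 3 fell at 70 min (limma; 6.72% and 7.7% of all probes were called). Tfrc, the transferrin receptor that takes up iron, rose by 0.76 (7.38 ± 0.31 at 70 min, against 6.63 ± 0.16 in control cells, SD, n = 3 each; limma adjusted p = 0.000995). Slc40a1, which encodes the iron exporter ferroportin and is known in mice as an MTF-1 target, fell by 0.66 (0.00208), and Steap3, a ferrireductase gene, fell by 0.40 (0.0202). The ferritin light chain gene Ftl1 fell by 0.15 (0.0089). Without the 3 arrays of highest median, where the 70 min group is 1 array and the other groups supply the spread, only Tfrc was called, and the differences were -0.44 for Slc40a1, -0.44 for Steap3 and -0.10 for Ftl1. Steap3 lost its call too when control replicate 2 (0.0693), control replicate 3 (0.104) or 70 min replicate 2 (0.0579) was removed. At 4 h and 8 h limma called none of the 17, with 3 and 2 at an unadjusted p under 0.05, beside 3.79% and 0.027% of all probes called. Against 70 min, Slc40a1 was higher at 4 h and 8 h (0.98 and 0.88, limma adjusted p = 0.00013 and 0.000159). Steap3 was too (0.51 and 0.69, 0.00623 and 0.000258). At 8 h Ftl1 was also higher than at 70 min (0.18, 0.00137) and Tfrc lower (-0.73, 0.00114). Of all probes, 7.47% and 15.9% were called in these 2 comparisons. Alternatives were not run for them.

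Genes responsive to glucocorticoids, which are known inducers of metallothioneins, were also set beside them. Of 10 tested, 4 rose and 1 fell at 70 min, when 6.72% of all probes were called higher and 7.7% lower. Klf9, a transcription factor gene, rose by 0.50 (limma adjusted p = 0.000929), the clock gene Per1 by 0.50 (0.0192), the co-chaperone gene Fkbp5 by 0.30 (0.0499) and the EGFR inhibitor gene Errfi1 by 0.23 (0.0349), while the kinase gene Pdk4 fell by 0.73 (0.00106). The calls of Per1, Fkbp5 and Errfi1 were each lost in 6 or more of 19 alternatives, and without the 3 arrays of highest median 2 rose (Per1 and Klf9) and 1 fell (Pdk4). At 4 h 1 of the 10 was called, Errfi1, which was lower (-0.44; limma adjusted p = 0.00126), beside 3.79% of all probes, and at 8 h limma called none, with 0 at an unadjusted p under 0.05, beside 0.027% of all probes.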
